A study of Mus musculus with 3 samples.

Results

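The proteasome and immunoproteasome genes are the protein-coding mouse genes whose symbols begin with Psma, Psmb, Psmc, Psmd, Psme, Psmf or Psmg followed by a digit, and the annotation holds 50 of them among 21901 protein-coding genes. They were chosen by symbol alone, with no measured value. RNA of the chromatin fraction, which holds transcripts still attached to or near the DNA, was sequenced as ribosome-depleted total RNA from bone-marrow-derived macrophages of C57BL/6J mice. All 3 libraries belong to 1 group, whose cells received Lipid A at 100 ng/ml for 12 h, spent 12 h after washout without it, and received 100 ng/ml again for 60 min. Lipid A is the part of bacterial lipopolysaccharide that activates Toll-like receptor 4. No untreated or singly dosed library is in the group, so each value is a level after the second dose, with no baseline to set it against.

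The proteasome degrades ubiquitin-tagged proteins in a barrel-shaped core, the 20S particle, built from rings of alpha and beta subunits, with proteolytic sites on 3 of the beta subunits. The 19S particle caps the core, recognises the tag, unfolds the substrate with ATPases and removes the ubiquitin. Interferons induce replacements for the catalytic subunits and the PA28 alpha and beta activator, and the resulting immunoproteasome is known in macrophages and other antigen-presenting cells for making peptides that major histocompatibility complex class I molecules display.

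Gene counts summed to between 12602702 and 17222239 per library, and a count of 0 allows at most 0.238, 0.174 and 0.176 CPM, a unit of counts relative to the library's sum, in replicates 1, 2 and 3, which is where 3 counts lie. The libraries were made from 1000, 250 and 500 ng of RNA. The labels give each library its own biosample and all of them 1 donor entry, record neither sex nor age, and leave it unsaid if animals or cultures were separate. The p-values below therefore cover the spread among these samples, which may be technical. Replicate 2 stood apart. The 11 fibroblast and stromal markers summed to 46737 counts in it, against 30 and 126 counts in replicates 1 and 3, where 8 and 3 of the markers were at 0. The 8 macrophage markers were detected in every library and summed to 34353 to 43844 counts. The counts on the 50 genes were 19568, 24826 and 22067, or 0.155, 0.144 and 0.129% of each library.

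As a group the proteasome genes were far above the typical gene. Their median level was 20.1, 28.2 and 21.5 TPM (transcript abundance per length, scaled to the same total in each library) in replicates 1, 2 and 3, or 23.3 ± 4.31 TPM (SD, n = 3). The median of all protein-coding genes was 0.260, 0.960 and 0.300 TPM. Of the 50 genes, 32 had at least 10 TPM in every library, while 16.8% of all protein-coding genes did. Only Psmb11 was undetected, meaning at most 3 expected counts in each library. The count of 32 was the same without replicate 2, and the median was then 20.8 TPM.

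**Figure D1:**
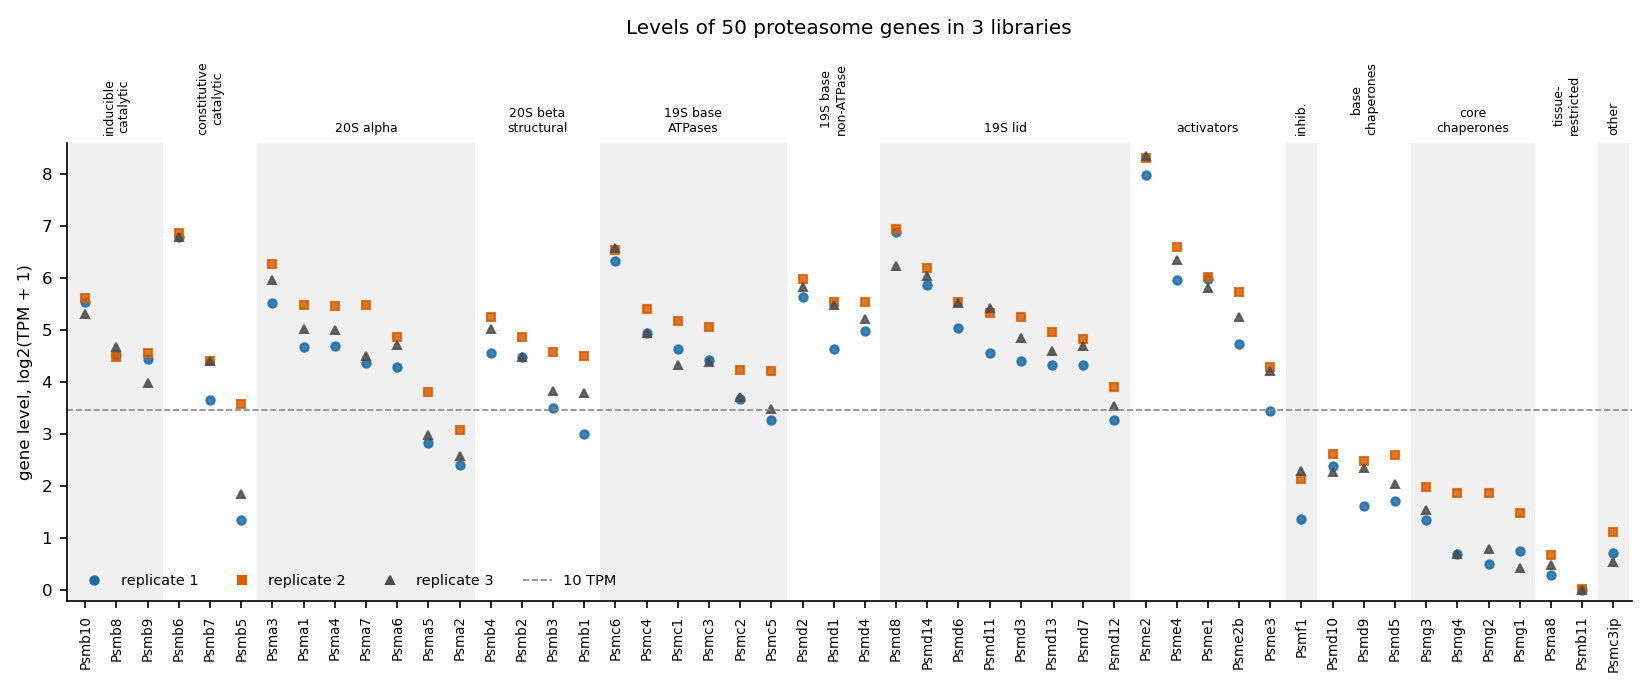
Gene level, as log2(TPM + 1), of each of the 50 proteasome genes in the 3 libraries, with 1 marker per library and genes grouped by role and ordered by mean within a role. Subunits of the core and of the 19S particle and the activators lie mostly above the dashed line at 10 TPM, whereas the assembly chaperones, the inhibitor Psmf1 and the tissue-restricted genes lie below it.

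Summed over all transcript models, RNA of all 3 inducible catalytic subunit genes was at levels like those of the core they join. Psmb10, which replaces the subunit with trypsin-like activity, had 45.7, 47.9 and 39.0 TPM in replicates 1, 2 and 3. Psmb8, also called LMP7, replaces the chymotrypsin-like subunit and had 21.9, 21.4 and 24.7 TPM. Psmb9, also called LMP2, replaces the caspase-like subunit and had 20.7, 22.5 and 14.8 TPM. In TPM their coefficient of variation was 7.79% for Psmb8, 10.5% for Psmb10 and 20.8% for Psmb9, against a median of 26.8% over the 46 members with a mean of at least 1 TPM. In CPM, which is not divided by length, it was 34.5% for Psmb8, 36.7% for Psmb10 and 30.5% for Psmb9, against a median of 17.4%, so their smaller variation in TPM did not hold on that scale. The levels were lower when only transcript models annotated as protein-coding were counted. Psmb8 then had 1.12, 2.66 and 8.24 TPM, Psmb9 had 5.21, 4.76 and 3.83 TPM, and Psmb10 had 6.56, 10.1 and 5.87 TPM. The median of all members was also lower with those models, at 8.63 TPM. The likeness of the 3 inducible genes to the core was not tested with those models.

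The constitutive catalytic subunits that they replace spanned a wider range. Psmb6, the caspase-like subunit, was the second highest of all 50 genes by mean TPM. Psmd8 lay above it in replicates 1 and 2, at 117 and 123 TPM. Psmb6 had 109, 116 and 110 TPM, with a coefficient of variation of 3.06%. In CPM it had 77.0, 43.9 and 46.1, with a coefficient of variation of 33.3% against the members' median of 17.4%. Its small variation in TPM thus did not hold on that scale either. Psmb7, the trypsin-like subunit, had 11.6, 20.2 and 20.3 TPM, lowest in replicate 1. It overlaps Nek6 on the other strand, which held between 519.5 and 825.0 counts, so reads there could be shared. Psmb5, the chymotrypsin-like subunit, had 1.56, 11.0 and 2.59 TPM, from 17, 92 and 24 expected counts. Psmb5 was thus highest in the library with the stromal marker counts, and the part of those cells in its level was not tested. In bulk samples, fewer cells of a type and less RNA per cell cannot be told apart.

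The difference in RNA level between inducible and constitutive genes did not have the same direction at every catalytic position. It does not measure exchange of the proteins. On the log2(TPM + 1) scale, Psmb8 exceeded Psmb5 by 3.16, 0.90 and 2.84 in replicates 1, 2 and 3 (mean difference 2.30 ± 1.22, SD, n = 3). Psmb10 exceeded Psmb7 by 1.89, 1.20 and 0.91 (1.33 ± 0.50). Psmb9 lay below Psmb6 in every library, by differences of -2.35, -2.32 and -2.82 (-2.49 ± 0.28). For each of these 3 pairs the direction was shared by 3 of 3 libraries, and p was 0.25 in an exact two-sided sign-flip permutation test, which cannot go lower with 3 libraries.

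Averaged over the 3 pairs, the difference of inducible minus constitutive subunits was 0.90, -0.07 and 0.31 on the log2(TPM + 1) scale (0.38 ± 0.49, exact two-sided sign-flip permutation p = 0.5). It was positive in 2 of 3 libraries and smaller than its spread, so that neither class was higher beyond the variation between libraries. Without replicate 2 the mean was 0.60. The mean log2(TPM + 1) was 4.83, 4.88 and 4.66 for the inducible subunits, against 3.93, 4.95 and 4.35 for the constitutive ones. On the log2(CPM + 1) scale it was 5.11, 4.48 and 4.26 for the inducible subunits, against 4.09, 4.44 and 4.07 for the constitutive ones, so which class varied more between libraries depended on the scale.

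Both the summed contrast and the Psmb8 pair depended on which transcript models were counted. In the annotation used for counting, a gene can have protein-coding models and retained-intron models, which keep an intron and are not annotated as coding. Counting protein-coding models only, the mean difference over the pairs was -0.53 ± 0.50 and that of Psmb8 minus Psmb5 was -0.21 ± 1.54 (SD, n = 3), the reverse of the directions above. Protein-coding models of Psmb8 had 1.12, 2.66 and 8.24 TPM, and in replicate 3 most of this came from a 358-base model with 12.4 expected counts at 7.12 TPM. Psmb5 has no retained-intron model, so the pair compares unlike sets of models. Psmb10 minus Psmb7 kept its sign with protein-coding models (0.85 ± 0.48) but was -0.67 ± 0.81 in CPM, which does not correct for length.

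**Figure D2:**
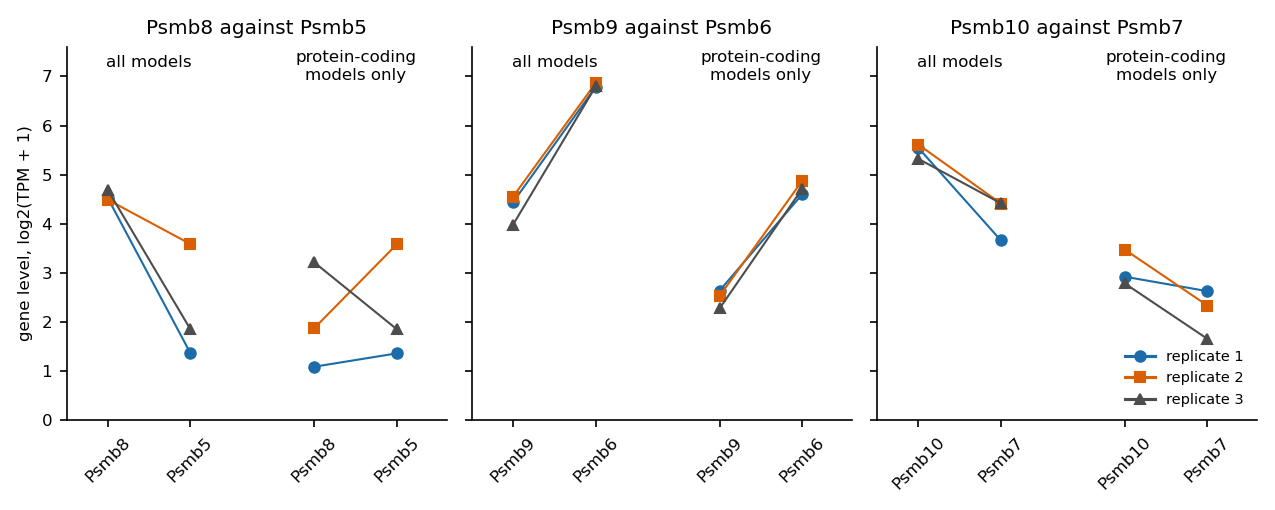
Level, as log2(TPM + 1), of each inducible catalytic subunit (left of each pair) and the constitutive subunit it replaces (right), with 1 line per library, over all transcript models and over protein-coding models only. The Psmb8 lines fall toward Psmb5 over all models and cross when only protein-coding models are counted, while Psmb9 lies below Psmb6 in either case.

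The remaining 11 subunits of the 20S core, which build its rings and carry no active site, had a median of 19.8, 28.3 and 21.6 TPM, with 8 of 11 at 10 TPM or more in every library. The 7 alpha subunits form the outer rings and the gate of the barrel. Psma3 was the highest of them at 44.7, 75.8 and 61.5 TPM. Psma2 was the lowest at 4.31, 7.51 and 4.98 TPM. The 4 structural beta subunits ran from Psmb1, at 7.01, 21.6 and 12.8 TPM, to Psmb4, at 22.7, 36.9 and 31.4 TPM. All 11 genes were highest in replicate 2 in TPM, as were 7709 of 9994 protein-coding genes with a mean of at least 1 TPM. In CPM, Psma3, Psma6 and Psmb2 were highest in replicate 1 and the others in replicate 2.

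Psma2 is a case where the deposited quantifications differ. The transcript tables in the kallisto layout, which were made from the same libraries, gave Psma2 14.5, 31.2 and 33.4 TPM, on average 4.70 times the level above. The same ratio was 2.60 for Psma5. Psma3 overlaps a processed transcript on the other strand, 3110056K07Rik, which held 331 to 334 counts in each library, and reads of the overlapping part could be shared because the strand setting is not given in the sources used here.

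Genes of the core lay somewhat below those of the 19S particle. The mean log2(TPM + 1) of the 14 standard core subunits was 4.01, 4.89 and 4.35, against 4.78, 5.33 and 4.99 for the 17 subunits of the 19S particle. Core minus 19S was -0.77, -0.44 and -0.64 (-0.62 ± 0.16, SD, n = 3), negative in 3 of 3 libraries, with an exact two-sided sign-flip permutation p = 0.25. These genes of unlike annotation are compared per length, and 10 of 14 in the core reached 10 TPM in every library against 15 of 17 in the 19S particle.

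Within the base, which sits on the core, the 6 ATPases that unfold the substrate had a median of 22.1, 33.8 and 19.6 TPM. Psmc6 was the highest ATPase at 79.1, 92.2 and 95.1 TPM. Psmc5 was the lowest at 8.65, 17.6 and 10.2 TPM. The other base subunits include Psmd2, a scaffold and the highest of its class at 48.7, 62.3 and 55.8 TPM, and Psmd4, a ubiquitin receptor and the lowest by mean at 30.5, 45.5 and 35.9 TPM. Psmd1, another scaffold, lay close to it at 24.0, 45.4 and 43.6 TPM. The 8 lid subunits ran more widely. Psmd8 led them with 117, 123 and 74.0 TPM, highest in replicates 1 and 2. Psmd14, the enzyme that cuts off the ubiquitin chain, had 57.1, 72.2 and 64.7 TPM. Psmd12, a scaffold of the lid, was the lowest at 8.61, 14.1 and 10.6 TPM.

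Among the activators, which open the core without the 19S particle, Psme2 stood highest of all 50 genes. Psme2, the PA28 beta subunit, had 252, 318 and 326 TPM and ranked 148th of the protein-coding genes by mean TPM. Psme1, the PA28 alpha subunit that forms a ring with it, had 62.2, 63.6 and 55.4 TPM. Psme3, the PA28 gamma subunit of a nuclear activator that interferon does not induce, had 9.94, 18.5 and 17.7 TPM. The mean of Psme1 and Psme2 exceeded Psme3 by 3.53, 2.88 and 2.86 on the log2(TPM + 1) scale (3.09 ± 0.38, SD, n = 3; exact two-sided sign-flip permutation p = 0.25), in 3 of 3 libraries.

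Part of the Psme2 level rests on a very short model. A 185-base retained-intron model with an effective length of 22.5 bases held 21.3, 14.8 and 15.9 expected counts and was given 34.0, 100 and 84.1 TPM. Without models under 400 bases, a setting added after the data had been seen, Psme2 was still the highest member at 226 ± 13.9 TPM (SD, n = 3), and the contrast with Psme3 was 2.89. In CPM, Psme2 ranked second of the 50 genes at 94.1 CPM. With protein-coding models only, the contrast was 0.77 ± 0.47.

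Psme4, which encodes the PA200 activator found in the nucleus, had 61.1, 96.4 and 80.1 TPM and was the member with the most counts, 2719, 3951 and 3447. Psme2b, an intronless copy of Psme2 on chromosome 11 (mm10 chr11:48945354-48946190, minus strand), had 25.7, 51.9 and 37.0 TPM. It lies inside Gm12185 and overlaps 9930111J21Rik1 on the same strand, and 9930111J21Rik1 held 2026 to 3414 counts, and the copy resembles the Psme2 messenger RNA, so its level is uncertain. Psmf1, which encodes the proteasome inhibitor PI31, had only 1.58, 3.42 and 3.93 TPM.

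The factors that assemble the particle were low. The 3 chaperones of the 19S base had a median of 2.30, 5.10 and 3.81 TPM, from Psmd5 at 2.30, 5.10 and 3.10 TPM to Psmd10, the oncoprotein gankyrin, at 4.26, 5.19 and 3.81 TPM. The 4 chaperones of the core had a median of 0.660, 2.68 and 0.675 TPM. Psmg3 was the highest of them at 1.55, 2.96 and 1.92 TPM, and Psmg1 was the lowest by mean at 0.690, 1.81 and 0.350 TPM. In replicate 1, Psmg2 at 0.430 TPM and Psmg4 at 0.630 TPM were lower. These rest on few counts, with 5, 16 and 4 for Psmg1 and 3, 9 and 2 for Psmg4. All 7 chaperones were highest in replicate 2 in TPM, as were 7709 of 9994 protein-coding genes with a mean of at least 1 TPM. In CPM, Psmd10 was highest in replicate 1 and the others in replicate 2.

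Both tissue-restricted core subunits were at or near the floor. Psmb11, the catalytic subunit of the thymus proteasome, had 0, 1 and 0 counts, which is within the 3 counts that a count of 0 allows. Psma8, the alpha subunit of the testis proteasome, had 4, 3 and 6 counts, or 0.230, 0.610 and 0.400 TPM. Psmc3ip, whose product acts in meiotic recombination and is no proteasome subunit, fits the symbol rule and had 0.640, 1.18 and 0.450 TPM. The 4 pseudogene entries with such symbols held at most 1 count in any library.

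The chromatin RNA of many proteasome genes was assigned mainly to retained-intron models. Of the 50 genes, 34 have such a model, and 26 passed the filter of a summed level of at least 5 TPM over both classes. In a limma test of log2 of retained-intron over protein-coding TPM, each plus 0.1, with Benjamini-Hochberg adjustment over all 4311 genes tested, 12 of 26 were higher in retained-intron models, against 24.3% of all genes tested. Another 5 were higher in protein-coding models, against 25.6%. The median log2 ratio of the 26 genes was 1.57, beside -0.06 over all genes tested. Expected counts are not divided by length. With them, 8 of 33 members were higher in retained-intron models by limma, against 724 of all 7313 genes tested. Another 6 were higher in protein-coding models, against 3404 of 7313. The median log2 ratio was then 0.56, beside -1.53 over all genes tested. The ratio depends on which models the annotation holds for each gene.

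The catalytic subunits and PA28 made up 6 of those 12 genes. Psme2 had 243, 259 and 267 TPM in retained-intron models, against 8.97, 59.3 and 58.7 TPM in protein-coding models (log2 ratio 3.02 ± 0.61, SE; limma adjusted p = 0.0183). The low protein-coding value of replicate 1 sets this gene's spread. Psme1 had 54.8, 46.4 and 46.2 TPM against 7.41, 14.1 and 7.11 TPM (2.42 ± 0.31; limma adjusted p = 0.00672).

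The inducible catalytic subunits were alike in this. Psmb8 had 20.8, 18.8 and 16.4 TPM in retained-intron models, against 1.12, 2.66 and 8.24 TPM in protein-coding models (2.62 ± 0.64; limma adjusted p = 0.0287). Psmb9 had 15.5, 17.3 and 10.7 TPM against 5.21, 4.76 and 3.83 TPM (1.62 ± 0.21; limma adjusted p = 0.00670). Psmb10 had 26.7, 22.9 and 17.7 TPM against 6.56, 10.1 and 5.87 TPM (1.59 ± 0.25; limma adjusted p = 0.00995). The constitutive subunit Psmb6 had 86.3, 87.5 and 85.1 TPM against 23.2, 28.3 and 25.2 TPM (1.75 ± 0.20; limma adjusted p = 0.00539). In Psmb8, Psmb9, Psmb10 and Psmb6 every retained-intron value exceeded every protein-coding value. The share of all tested genes with such a separation was not computed, so it is no trait of these genes. Psmb7 had a mean log2 ratio of 1.77 ± 0.57 that varied more between libraries and missed the threshold (limma adjusted p = 0.0582).

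The other 6 genes called in this direction were the alpha subunit Psma3 (log2 ratio 2.98), the lid subunits Psmd6 (2.06) and Psmd13 (1.20), the ATPases Psmc6 (1.90) and Psmc4 (1.58), and the structural subunit Psmb3 (1.56), with limma adjusted p between 0.00292 and 0.0213. Psmc6 did not keep its direction in expected counts, which are not divided by length (log2 ratio -0.24). Psmd13 overlaps the pseudogene Gm15542 on the same strand, with 121 to 139 counts.

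The 5 genes higher in protein-coding models were all in the 19S particle. Its members Psmd6, Psmd13, Psmc6 and Psmc4 were called the other way, and Psmd2, Psmd3, Psmd8 and Psmd11 were not called. The 5 were the ATPases Psmc1 (log2 ratio -2.86) and Psmc2 (-1.30), the ubiquitin receptor Psmd4 (-1.24), the lid subunit Psmd7 (-1.10) and the scaffold Psmd1 (-0.82), with limma adjusted p between 0.0117 and 0.0363. Psmc1 had 5.15, 2.04 and 0.920 TPM in its only retained-intron model, against 12.1, 24.0 and 14.7 TPM in protein-coding models. The counts of called members depended on replicate 3. Without it 7 members were called for retained-intron and 0 for protein-coding models by limma, where 4 had an unadjusted p under 0.05. Among all 4412 genes then tested, 351 and 473 were called. Without replicate 1, 3 rather than 5 members were called for protein-coding models, beside 849 of 4511 genes tested. Without replicate 2 the counts were 14 and 4, beside 901 and 829 of 3852 genes tested. Psma3, Psme1, Psmb6 and Psmb9 were called under all 10 other settings tried.

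**Figure D3:**
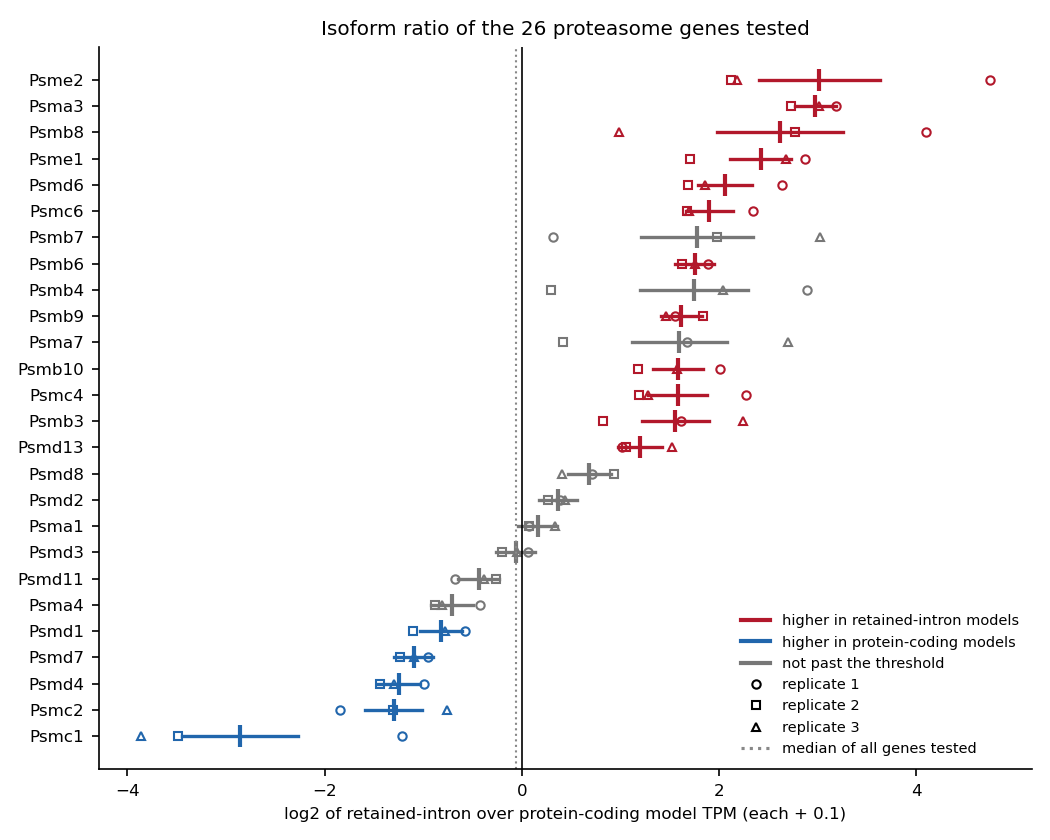
Log2 of retained-intron over protein-coding model TPM (each plus 0.1) for the 26 proteasome genes tested, with open markers for the 3 libraries, a tick for the mean and a bar of 1 SE from limma. The 12 red genes lie to the right of 0, with the highest means for Psme2, Psma3, Psmb8 and Psme1, and the 5 blue genes lie to the left.

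The intron starts that these models read through are shown for the catalytic subunits and PA28 called in this direction, as examples of what these models keep. Each model shown carries only part of its gene's retained-intron level. Each line gives the last 10 exon bases in lower case and the first 20 bases of the retained intron in capitals, 5′ to 3′, from the GENCODE M21 transcript.
Psmb8: ggacaagaagGTGGGTGGCCTATGTCTGTG
Psmb9: agctacacggGTACAAAGCCCTGGGGTCCT
Psmb10: ctaaaatctaGTCAGTATGCCCCGGACCAG
Psmb6: aggagggcagGTCAGGCCCTCCTCACCAGA
Psme1: gcaacaggagGCAAGCTGGGAGACCTGGGA
Psme2: cacccatgtaGTGAGTGCACAGTCCTCCAG

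For each gene the model shown is the one with the most counts among those that keep a whole intron between coding exons, and the intron is the shortest in that model. The Psmb8 intron spans 440 bases (mm10 chr17:34200271-34200710, plus strand), and its model held 205, 108 and 155 expected counts. The Psmb9 intron spans 537 bases (chr17:34183745-34184281, minus strand), in a model with 309, 374 and 267 expected counts. The Psme2 intron spans 299 bases (chr14:55587741-55588039, minus strand), in a model with 401, 309 and 435 expected counts.

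The introns of Psmb10 (chr8:105937382-105937493, minus strand), Psmb6 (chr11:70526674-70527178, plus strand) and Psme1 (chr14:55580042-55580113, plus strand) span 112, 505 and 72 bases. The Psmb10 model held few counts, at 13.5, 47.3 and 56.9, and was given 1.24, 5.65 and 6.15 TPM of the gene's retained-intron level. The Psmb6 model held 268, 208 and 185 expected counts, and the Psme1 model held 252, 186 and 237. The Psme1 intron begins with GC and the other 5 with GT, and all 6 end with AG. All 4 retained-intron models of Psmb8 and all 7 of Psme1 hold a whole coding intron, as do 4 of 5 for Psmb10, 4 of 7 for Psme2, 2 of 3 for Psmb6 and 1 of 3 for Psmb9. The remaining models begin or end within an intron or keep none between coding exons.

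The inducible subunit genes Psmb8 and Psmb9 lie beside other genes of antigen presentation. On chromosome 17, Psmb9 (mm10 chr17:34181987-34187764, minus strand) and Tap1 (from 34187553, plus strand), a subunit of the peptide transporter, run in opposite directions and overlap by their starts, which lie 211 bases apart. Tap1 had 113, 135 and 87.8 TPM, and its library order matched that of Psmb9. Tap1 held 3407 to 4748 counts, and as the strand setting is not given, reads of the overlapping part could be shared between the 2 genes. The match in order was not tested. Psmb8 follows at chr17:34197721-34201454 and then Tap2, the partner of Tap1, at 10.4, 14.1 and 10.3 TPM. On chromosome 14, Psme1 and Psme2 lie on either side of Emc9, and Irf9, an interferon signalling factor with 38.2, 52.2 and 50.8 TPM, follows after Rnf31.

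Of the 50 genes, 42 matched a RefSeq promoter entry (GRCm38.p6, 250 bases before to 50 after the start). The core of the interferon-stimulated response element, GAAANNGAA on either strand, was present for 7 of 42 genes, or 16.7%, beside 9.76% of all 27025 genes with an entry, counting a gene where any of its entries held the letters. Among the inducible catalytic subunits and PA28 it was present for Psme1 alone. The CCAAT box was present for 15 of 42, or 35.7%, beside 41.1% of all genes, and includes Psmb9. The antioxidant response element TGACTCAGC was present for 0 of 42, beside 0.503%. A match is a description of letters and not of binding. Both promoters are printed with the match in capitals, Psmb9 at chr17:34187281-34187580 (minus strand, a window that holds the start of Tap1) and Psme1 at chr14:55578244-55578543 (plus strand).
Psmb9: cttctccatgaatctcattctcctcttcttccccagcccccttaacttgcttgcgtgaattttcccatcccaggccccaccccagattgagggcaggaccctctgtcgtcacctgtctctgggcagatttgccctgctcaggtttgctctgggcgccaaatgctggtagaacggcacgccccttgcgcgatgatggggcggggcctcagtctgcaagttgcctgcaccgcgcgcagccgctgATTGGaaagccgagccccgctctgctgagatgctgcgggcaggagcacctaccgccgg
Psme1: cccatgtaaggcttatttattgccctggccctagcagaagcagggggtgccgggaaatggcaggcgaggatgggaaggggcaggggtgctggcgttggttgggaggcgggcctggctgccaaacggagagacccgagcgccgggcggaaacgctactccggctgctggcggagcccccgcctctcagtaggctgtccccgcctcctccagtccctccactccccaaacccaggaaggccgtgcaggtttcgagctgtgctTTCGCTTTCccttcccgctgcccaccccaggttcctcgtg

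The other genes of the class I presentation list spanned a wide range in the same libraries. All 11 were detected, with a median of 113, 135 and 87.8 TPM. The highest was Irf1, a transcription factor of interferon signalling, at 721, 596 and 536 TPM. Nlrc5, the activator of class I genes, was also among the 3 highest at 418, 333 and 284 TPM. The lowest by mean was Erap1, which trims peptides, at 8.15, 11.9 and 8.83 TPM. Pdia3 was lower in replicates 1 and 3, with 6.78, 37.2 and 7.44 TPM in replicates 1, 2 and 3.

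Genes that assemble, serve or regulate the proteasome were nearer to the subunits in level. The 19 genes of assembly, deubiquitination and substrate delivery had a median of 14.4, 22.6 and 21.8 TPM. The highest were Vcp, the p97 unfoldase, at 79.8, 119 and 104 TPM, Zfand5 at 59.4, 105 and 79.4 TPM, and Ecpas, a proteasome adaptor, at 44.0, 82.7 and 49.9 TPM. The lowest was the shuttle factor Ubqln2 at 0.470, 2.84 and 0.360 TPM. The list around NRF1, the factor that restores proteasome genes when the proteasome is impaired, held 7 genes with a median of 20.7, 24.7 and 28.9 TPM. Its highest were Nfe2l2 at 222, 180 and 237 TPM, Nfe2l1, which encodes NRF1 itself, at 111, 86.7 and 98.3 TPM, and Mafg, a partner factor, at 35.9, 66.9 and 56.1 TPM. The lowest was Ddi2, the protease that activates NRF1, at 2.73, 5.45 and 2.69 TPM.

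The libraries were also compared gene by gene, in a comparison set up after the values had been seen and with no test of the difference between gene groups. Of the 46 members with a mean of at least 1 TPM, 45 lay higher in replicate 2 than the average of replicates 1 and 3, against 87.4% of such protein-coding genes. The exception was Psmb8. The median log2 ratio was 0.14 for Psmb8, Psmb9, Psmb10, Psme1 and Psme2, against 0.50 for the other 41 members and 0.54 for all such protein-coding genes. With protein-coding models only, the medians were 0.62 for those 5 genes, 0.66 for the other 41 members and 0.57 for all such protein-coding genes, with 4 of 5 and 41 of 41 higher in replicate 2.

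The direction for these genes depended on the scaling. In CPM, 0 of the 5 immunoproteasome genes were higher in replicate 2 (median -0.46), against 32 of the other 41 (median 0.15), and 71.4% of all such protein-coding genes (median 0.26). With protein-coding genes rescaled to the same total, it was 1 of 5 and 36 of 41, against 72.4%. Protein-coding genes took 26.8, 35.0 and 30.0% of TPM in replicates 1, 2 and 3. The stromal marker counts given above move with replicate 2, as does its starting amount of 250 ng, and their part in this difference was not tested.

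**Figure D4:**
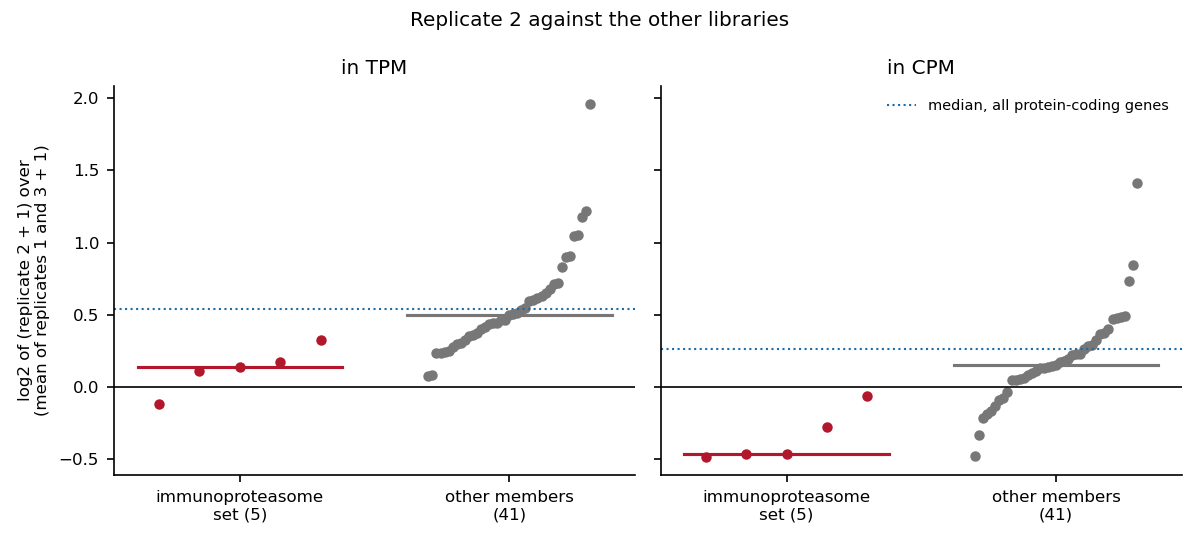
Log2 of replicate 2 over the mean of replicates 1 and 3 (each plus 1) for the 5 immunoproteasome genes (left) and the other 41 proteasome genes with a mean of at least 1 TPM (right), in TPM and in CPM, with points for genes, a solid line for each median and a dotted line for the median of all such protein-coding genes. The immunoproteasome genes lie below the dotted line in either unit, and below 0 in CPM.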

How the data were processed

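Expected counts per gene and transcript, TPM values and the posterior mean TPM were deposited by the authors in the layout that RSEM writes, for mm10 with GENCODE M21. The authors also deposited estimated counts and TPM per transcript in the kallisto layout. Which aligner and strand setting were used, and in which versions, is not given in the sources used here. Fragments of 250 to 400 bases are given in the labels. Rows naming no gene held 0.269 to 1.94% of counts and were left out. Floors of 3 counts cover counting error only.

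Levels were taken as TPM, contrasts as differences of log2(TPM + 1) within a library, each tested with an exact two-sided sign-flip permutation of the 3 libraries. Isoform ratios were tested with limma 3.58.1 in R 4.3.3, filter 5 TPM, Benjamini-Hochberg over all genes, threshold 0.05, after a test on simulated data. Tables were handled with Python 3.11.15, pandas 2.3.3, numpy 2.4.6 and scipy 1.17.1. The libraries were not copies of each other, with a chi-square per gene of 61.6 to 102 over pairs.

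Members, gene lists and tests were chosen with earlier results of these data known. In full are given the catalytic subunits, the activators, the tissue-restricted genes, the highest and lowest member of each role and every member past the isoform threshold. Of other lists the 3 highest, the lowest and all undetected genes are named. Of these, 1 gene is not reported here. Genes beside a member, overlapping genes, Psma5, Psmd14, Psmg4, Tap2, Irf9, Pdia3, Adrm1 and Ufd1 were added after their values had been seen. Alternatives were another pseudocount, filter, quantification or unit, protein-coding models only, and leaving out each library. Paaf1 was not found in the tables.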

Additional observations from a re-analysis of the deposited data

Results flagged for a closer look

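Psmb11, the thymus-specific catalytic subunit, was singled out because it had a signal in tables that the comparisons do not use. It had 0, 1 and 0 expected counts per library, within the 3 counts that a count of 0 allows, while the kallisto-layout tables gave it at least 134 estimated counts in each library, or 1.72, 3.86 and 3.91 TPM in replicates 1, 2 and 3. The gene lies next to Psmb5 on chromosome 14 (mm10 chr14:54621433-54629556, plus strand). The cause of the difference between the tables was not tested.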

How the results depend on the processing

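No paired analysis was possible because the labels give 1 group. Over 120 recomputed values, 102 kept their direction (contrasts) or stayed within the set margin (counts and levels), 15 moved further and 3 reversed. Sizes changed among the 102 too: the PA28 contrast was 0.77 in protein-coding models and 1.41 in CPM, Psmb9 minus Psmb6 was -0.95 in CPM, and inducible minus constitutive subunits was 0.12 without replicate 1. The median level of the members was 27.9 TPM in the kallisto-layout tables and 75.6 TPM with protein-coding genes rescaled to the same total. With protein-coding models only it was 8.63 TPM, and 12 members reached 10 TPM in every library. The share of all protein-coding genes that did so with those models is not given here, so the 12 have no background beside them. Protein-coding models reversed the contrast of inducible and constitutive subunits (-0.53) and Psmb8 minus Psmb5 (-0.21), and CPM reversed Psmb10 minus Psmb7 (-0.67). Leaving out 1 library at a time gave 7 to 14 members higher in retained-intron models and 0 to 4 in protein-coding models. Among the 3852 to 4511 genes tested, the counts were 351 to 901 and 473 to 849, against 1049 and 1104 of 4311 with all libraries. The kallisto-layout TPM gave 1810 of 4871 genes higher in retained-intron models, and expected counts gave 3404 of 7313 higher in protein-coding models. Psmb8 was not called without the filter on low levels or without replicate 1 (limma adjusted p = 0.0547 and 0.0915), nor Psme2 and Psmb10 in expected counts (0.140 and 0.185) or without replicate 3 (0.0607 and 0.0649). For Psmb8, Psme2 and Psmb10 the adjusted p over all settings ranged from 0.00196 to 0.0915, 0.00220 to 0.140 and 0.00233 to 0.185. Psmb3, Psmc4, Psmc6, Psmd6 and Psmd13 and the 5 protein-coding calls each lost the call under at least 1 setting. In the comparison of libraries, the immunoproteasome count of 4 of 5 in replicate 2 was 2 in the kallisto-layout TPM. The cause was not tested. Depth limits the core chaperones, Psmb5 and Psma8, which rest on few counts, and 3 libraries cannot give an exact p below 0.25.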

Other observations

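Several proteasome genes share their start region with a gene of another kind. Psma2 starts 75 bases from Mrpl32, a mitochondrial ribosomal protein gene transcribed in the other direction, which had 3.92, 7.47 and 4.56 TPM in replicates 1, 2 and 3, beside 4.31, 7.51 and 4.98 TPM for Psma2. Psmc2 starts 32 bases from Dnajc2, a ribosome-associated chaperone gene at 7.98, 15.3 and 8.47 TPM, beside 11.7, 17.9 and 12.1 TPM for Psmc2. Psmb1 starts 137 bases from Tbp, the gene of the TATA-binding protein, at 6.34, 10.3 and 5.24 TPM, beside 7.01, 21.6 and 12.8 TPM for Psmb1. The other pairs of this kind within 1000 bases were Psma7 with Ss18l1, Psmc5 with Ftsj3, Psmd10 with Atg4a, Psme2 with Rnf31 and Psmg2 with Cep76. These genes were looked up after the data had been seen. The share of all genes with such a neighbour is not given here, so these pairs are no trait of proteasome genes.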
